A study of Drosophila melanogaster with 8 samples.

Results

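Sarcomere protein genes encode the filaments and cross-links of the contractile unit of striated muscle, and their mRNA levels are described here in whole *Drosophila melanogaster* embryos that misexpressed neural transcription factors. The members were a list of 33 gene symbols, chosen by function, and were found by an exact match of the symbol in both deposited tables of 17321 genes. Of these symbols, 32 were found; Msp-300 is a second spelling of Msp300, which was present. They comprised 5 thick filament genes, 6 thin filament genes, 9 troponin and tropomyosin genes, 11 Z disc and titin-like genes, and Argk, which encodes arginine kinase.

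All 8 libraries came from embryos carrying da-Gal4, a driver active throughout the embryo, and each of the 4 groups had 2 libraries that the labels call biological replicates. Ctrl (da-Gal4/OregonR) and Quad (da-Gal4 with UAS transgenes for ase, Kr, wor and SoxN) made up experiment 1. Ctrl-D (da-Gal4/OregonR) and QuadD (da-Gal4 with UAS-ase-Vp16, UAS-wor-EnR, UAS-SoxN-EnR and UAS-Kr) made up experiment 2. Ase-Vp16 is an activator fusion, the EnR forms are repressor fusions, and Kr was wild type in both sets. Embryos of stages 8 to 16 were pooled in frozen collections of 50 mg, and total RNA was read once per fragment over 50 bp. Each experiment had its own lane, so experiment and lane cannot be told apart. OregonR stands only in the strain names of the driver-only groups, so strain background and transgenes cannot be told apart either. The question of the design is how each transgene set changed the transcriptome relative to the driver-only embryos of its own experiment.

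In a sarcomere, thick filaments of myosin slide along thin filaments of actin, and calcium binding to troponin C moves the troponin and tropomyosin complex off the myosin binding sites of actin. Z discs anchor the thin filaments, and titin-like proteins tie Z discs and thick filaments together. In the fly embryo these genes come on late, when fused myotubes of the body wall, heart and gut differentiate, and several actins and troponin C proteins have separate genes for larval and adult muscles.

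Levels are RPKM, read numbers corrected for transcript length and sequencing depth, as deposited by the authors. Fold changes are differences of log2(RPKM + 1), given with their standard error (SE), and "rose" or "fell" means an adjusted p under 0.05 by limma's moderated test with Benjamini-Hochberg adjustment over all genes tested. Genes under 1 RPKM in all but 1 library of a fit, or in every library, were not tested. Medians and library overlaps of the members include untested members, while the values over all genes hold tested genes only. In whole embryos, fewer muscle cells and less RNA per muscle cell cannot be told apart.

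Relative depth ranged from 39.6% to 100% of the deepest library, QuadD replicate 1, and the 3 shallowest libraries, both of Ctrl-D and QuadD replicate 2, belonged to experiment 2. As a check of the labels, ase and wor rose in Quad (1.77 ± 0.12 and 2.00 ± 0.10) and in QuadD (1.60 ± 0.08 and 2.08 ± 0.08). For SoxN the change was 0.35 ± 0.12 in Quad, which did not pass (adjusted p = 0.0536), and 0.41 ± 0.10 in QuadD, which did (adjusted p = 0.0162). Kr rose in Quad (1.33 ± 0.15) but stood at 64.8 and 67.4 RPKM in QuadD against 69.2 and 57.5 in Ctrl-D, a difference that did not pass (0.07 ± 0.11, adjusted p = 0.637), so QuadD below means the libraries so labelled. The libraries of Quad stood apart from each other in the genes described here: 30 of the 32 members were lower in replicate 2 than in replicate 1, with a median ratio of 0.482, while the median over all genes tested was close to 0 on the log2 scale (0.0041). Medians or counts for Quad are therefore also given without each of these libraries, and values for most of the members whose call turned on them.

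**Figure D1:**
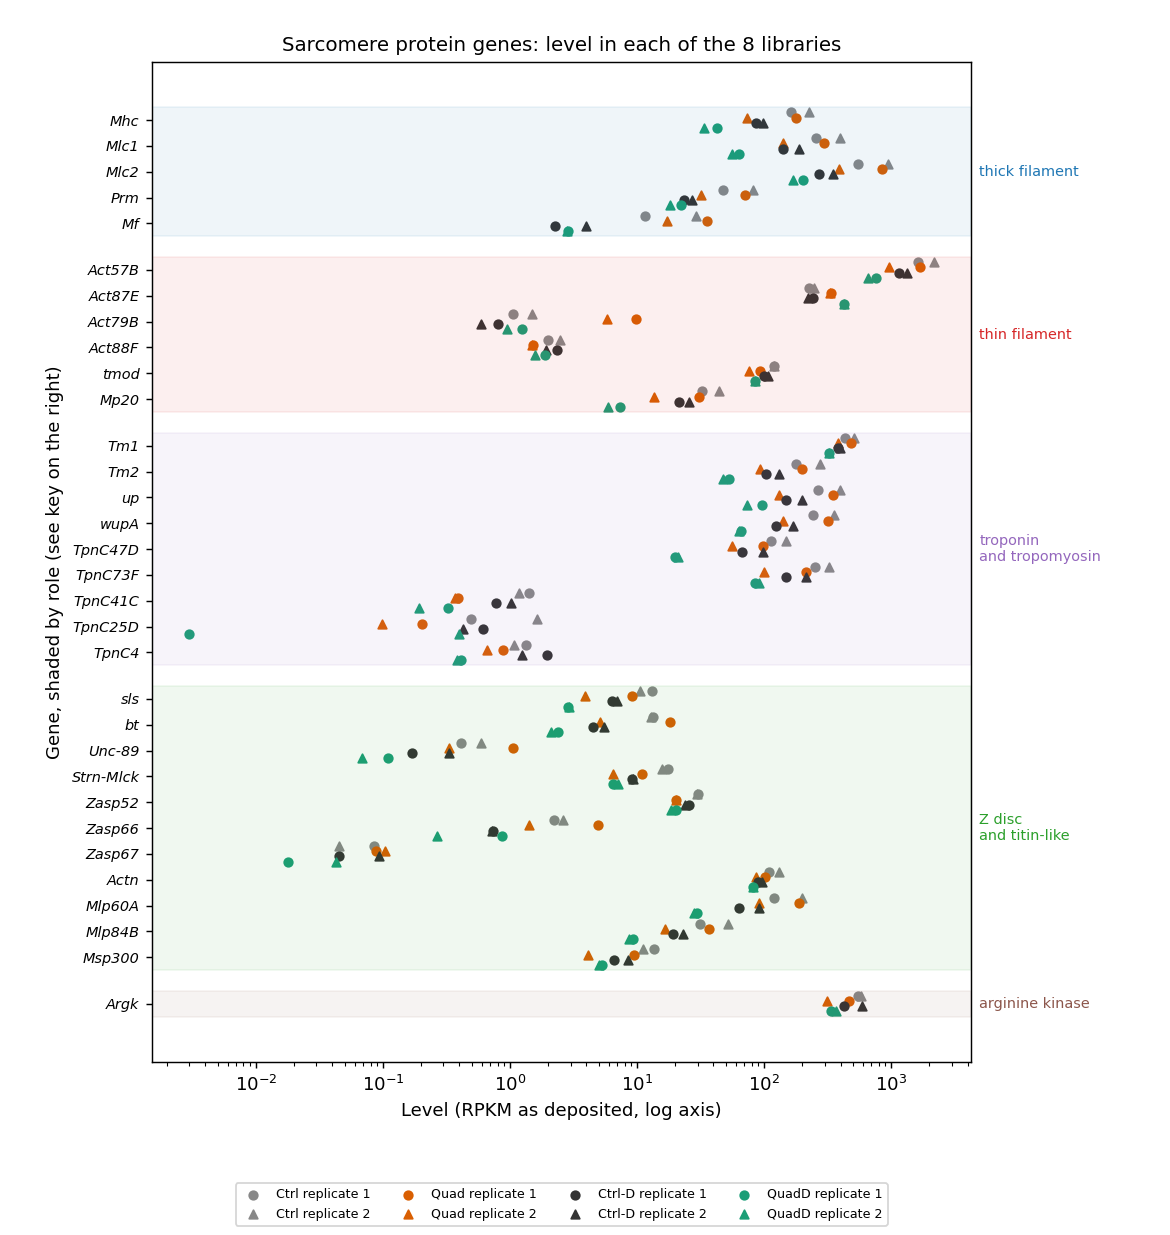
Level of each of the 32 sarcomere protein genes in each library. The horizontal axis is RPKM on a log scale, rows are genes shaded by role, colours are the 4 groups, and circles and triangles are replicates 1 and 2. QuadD symbols lie to the left of the Ctrl-D symbols in 28 genes and to the right in 2, Act87E and Act79B, while the circles and triangles of Quad are often far apart.

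The members spanned a wide range of levels. Act57B, the main actin of embryonic and larval muscle, was the most abundant member in all 8 libraries, with 25.3% to 31.3% of the members' summed RPKM. The second rank changed with the group, from Mlc2 in Ctrl and Quad to Argk in Ctrl-D and Act87E in QuadD. Zasp67 was the lowest member in most libraries, at 0.018 to 0.104 RPKM. Summed over the members, the level was 5427 and 7311 RPKM in Ctrl, 6130 and 3503 in Quad, 3667 and 4417 in Ctrl-D, and 2754 and 2599 in QuadD. The Quad libraries lay on both sides of the lower Ctrl library, whereas both QuadD libraries lay below both Ctrl-D libraries.

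In QuadD, 18 of 26 tested members fell and 1 rose (Act87E), against 27.7% of all 10207 tested genes that fell and 27.4% that rose. The median log2 fold change of the 32 members, with the 6 untested ones included, was -0.55, against 0.034 over all genes tested. Both QuadD libraries lay below both Ctrl-D libraries in 28 members, a state found in 39.1% of all tested genes, and above them in 2 (42.2% of all tested genes). TpnC4, 1 of the 18, reached the 1 RPKM filter only through its Ctrl-D level, so its fall is a description, and 17 of the other 25 tested members fell. The 7 tested members that did not pass were Prm, Mf, Act88F, Strn-Mlck, Zasp52, Actn and Msp300. The 6 members too low to be tested were Act79B, TpnC41C, TpnC25D, Unc-89, Zasp66 and Zasp67.

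In Quad, 6 of 29 tested members fell and 2 rose, against 22.6% and 24.9% of all 10436 tested genes. With both Quad libraries in the fit, the share of members that fell was thus near the background. TpnC41C (which fell) and TpnC4 (which did not pass) reached the filter only through their Ctrl level, and of the other 27 tested members 5 fell and 2 rose. Those that fell were tmod, TpnC47D, TpnC41C, Strn-Mlck, Zasp52 and Argk, and those that rose were the actin genes Act87E and Act79B. The members' median was -0.52, against 0.053 over all genes tested. It was -0.87 without Quad replicate 1 and -0.14 without Quad replicate 2. Both Quad libraries lay below both Ctrl libraries in 14 members (35.6% of all tested genes), above them in 3 (41.5% of all tested genes), and overlapped with them in 15. TpnC25D, Unc-89 and Zasp67 were too low to be tested.

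**Figure D2:**
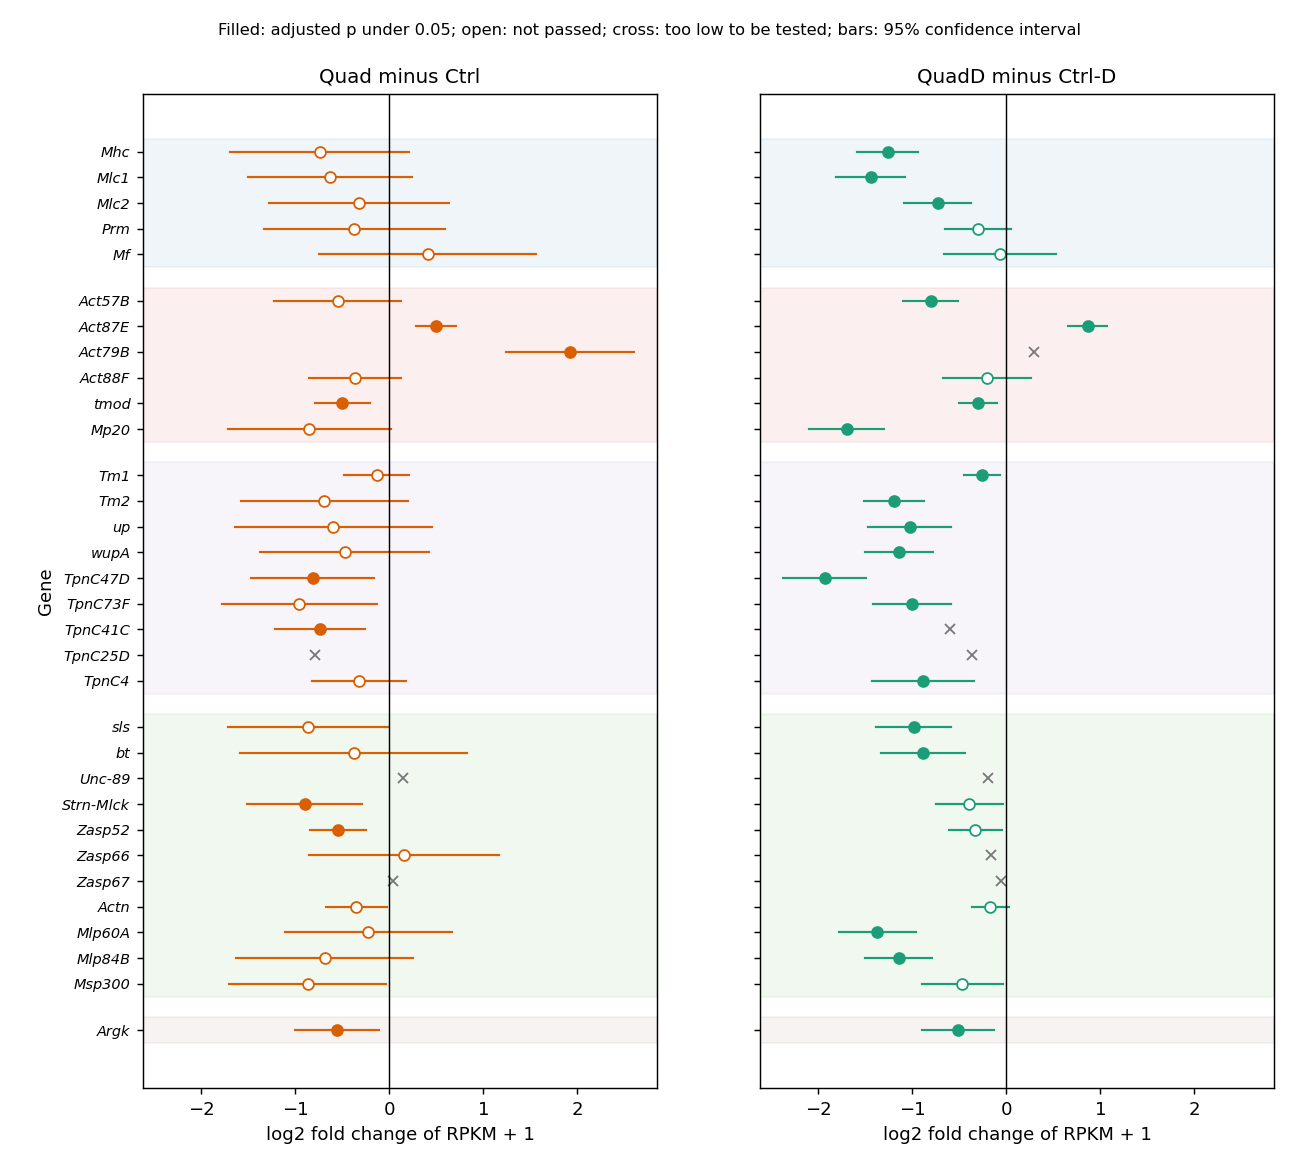
Log2 fold change of RPKM + 1 for each member in Quad minus Ctrl (left) and QuadD minus Ctrl-D (right), with bars for the 95% confidence interval. Filled symbols passed an adjusted p of 0.05, open symbols did not, and crosses mark genes too low to be tested. In QuadD 18 filled symbols lie below 0, and the only filled symbol above it is that of Act87E. The cross of Act79B also lies above 0 in QuadD. The intervals in Quad are wider for most genes, though not for TpnC4.

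Among the thick filament genes, 3 of 5 fell in QuadD, against 27.7% of all tested genes. In Quad 0 of 5 changed, also at an unadjusted p under 0.05. At the adjusted threshold 22.6% of all tested genes fell in Quad and 24.9% rose. Mhc encodes the muscle myosin heavy chain, the motor of the thick filament. Its level was 164 and 227 RPKM in Ctrl, 179 and 74.0 in Quad, 86.8 and 97.7 in Ctrl-D, and 42.6 and 33.6 in QuadD. Both QuadD libraries were below both Ctrl-D libraries, and Mhc fell by 1.26 ± 0.13 on the log2 scale (adjusted p = 0.000846). The Quad libraries overlapped with Ctrl, since replicate 1 lay between the Ctrl libraries and replicate 2 below both (-0.74 ± 0.39, adjusted p = 0.163). Without Quad replicate 1 the value was -1.37, and without Quad replicate 2 it was -0.11.

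The myosin light chain genes had the same order of libraries as Mhc in experiment 2. Mlc1, the essential light chain, stood at 142 and 189.6 RPKM in Ctrl-D and at 63.5 and 56.3 in QuadD, and fell by 1.44 ± 0.15 (adjusted p = 0.000753). Mlc2, the regulatory light chain, stood at 271 and 348 RPKM in Ctrl-D and at 201 and 169.7 in QuadD, and fell by 0.73 ± 0.14 (adjusted p = 0.00761). In experiment 1 neither passed: Mlc1 had 255 and 393 RPKM in Ctrl and 296 and 141 in Quad (-0.63 ± 0.36), and Mlc2 had 552 and 938 RPKM in Ctrl and 847 and 389.9 in Quad (-0.32 ± 0.39). In both genes the higher Quad library lay between the Ctrl libraries and the lower one below both. Without Quad replicate 1 both passed, Mlc1 at -1.16 and Mlc2 at -0.88, and without Quad replicate 2 their values were -0.097 and 0.24.

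The other thick filament genes did not pass in either comparison. Prm encodes paramyosin, which forms the core of invertebrate thick filaments, and had 47.4 and 81.5 RPKM in Ctrl, 71.2 and 32.1 in Quad, 23.3 and 27.0 in Ctrl-D, and 22.3 and 18.3 in QuadD. Its log2 fold change was -0.37 ± 0.40 in Quad and -0.30 ± 0.14 in QuadD (adjusted p = 0.473 and 0.122). The value in Quad was -0.93 without Quad replicate 1 and 0.19 without Quad replicate 2. Mf encodes myofilin, another thick filament protein, and was the thick filament gene with the lowest level, at 11.7 and 29.25 RPKM in Ctrl, 35.8 and 17.3 in Quad, 2.255 and 3.98 in Ctrl-D, and 2.87 and 2.81 in QuadD. Its groups overlapped in both comparisons (0.41 ± 0.47 in Quad and -0.07 ± 0.24 in QuadD), and every library of experiment 1 was above every library of experiment 2.

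Thin filament genes moved in both directions. Act57B had 1628 and 2172 RPKM in Ctrl, 1704 and 968 in Quad, 1146 and 1333 in Ctrl-D, and 760.1 and 658 in QuadD. It fell by 0.80 ± 0.12 in QuadD (adjusted p = 0.00284), where the groups did not overlap, and did not pass in Quad (-0.55 ± 0.28, adjusted p = 0.148), where replicate 1 lay between the Ctrl libraries. Act57B passed without Quad replicate 1 (-0.96, adjusted p = 0.00704) and stood at -0.14 without Quad replicate 2. Act87E, the second actin gene of larval body wall muscle, had 226 and 246 RPKM in Ctrl, 336 and 329 in Quad, 245 and 221 in Ctrl-D, and 426 and 424 in QuadD. All 4 libraries with transgenes lay above all 4 driver-only libraries, and Act87E rose by 0.49 ± 0.09 in Quad (adjusted p = 0.00587) and by 0.87 ± 0.09 in QuadD (adjusted p = 0.00067). Without Ctrl replicate 1 the rise in Quad was 0.43 and did not pass (adjusted p = 0.0571).

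The actins of adult muscles were close to the lower end of the range. Act79B, an actin of adult leg and thorax muscles, had 1.055 and 1.49 RPKM in Ctrl and 9.82 and 5.79 in Quad, and rose by 1.92 ± 0.28 (adjusted p = 0.00277). In experiment 2 it had 0.806 and 0.59 RPKM in Ctrl-D and 1.24 and 0.944 in QuadD and was not tested. Act88F, the actin of the indirect flight muscle, was between 1.496 and 2.50 RPKM in every library and did not pass in Quad (-0.37 ± 0.20) or in QuadD (-0.20 ± 0.19). The actin genes are near-identical in their coding sequence and how reads were shared out among them is not stated in the sources, so the split between Act57B, Act87E, Act79B, Act88F and the cytoplasmic actins is uncertain.

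Of the other thin filament genes, tmod encodes tropomodulin, which caps the pointed end of the filament, and Mp20 encodes a small calponin-like muscle protein. The level of tmod was 121 and 119 RPKM in Ctrl, 93.6 and 76.0 in Quad, 100.4 and 108 in Ctrl-D, and 84.4 and 85.1 in QuadD. It fell by 0.50 ± 0.12 in Quad (adjusted p = 0.0165) and by 0.30 ± 0.08 in QuadD (adjusted p = 0.0249), with no overlap in either experiment. Mp20 had 32.7 and 44.1 RPKM in Ctrl, 30.8 and 13.7 in Quad, 21.5 and 25.8 in Ctrl-D, and 7.29 and 5.93 in QuadD. Its fall in QuadD was 1.70 ± 0.16 (adjusted p = 0.000597), and in Quad it did not pass (-0.85 ± 0.36, adjusted p = 0.0936), although both Quad libraries were below both Ctrl libraries. Mp20 passed without Quad replicate 1 (-1.41) and stood at -0.30 without Quad replicate 2.

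Troponin and tropomyosin genes had a median of -1.001 in QuadD and -0.694 in Quad, where it was -1.05 without Quad replicate 1 and -0.23 without Quad replicate 2. In QuadD 6 of 6 genes of this role fell (27.7% of all tested genes), besides TpnC4, which was tested only through its Ctrl-D level. In Quad 1 of 6 fell (22.6% of all tested genes), TpnC47D, besides TpnC41C and TpnC4, which were tested only through their Ctrl level. TpnC47D encodes a troponin C, the calcium sensor of the thin filament, and had 114 and 150.2 RPKM in Ctrl, 98.4 and 55.6 in Quad, 67.0 and 98.25 in Ctrl-D, and 20.0 and 21.1 in QuadD. No library with transgenes reached the level of a driver-only library of its own experiment, and TpnC47D fell by 0.82 ± 0.27 in Quad (adjusted p = 0.0476) and by 1.93 ± 0.18 in QuadD (adjusted p = 0.00055). The latter was the largest fall of any tested member. Without Quad replicate 2 the value in Quad was -0.41 and did not pass.

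TpnC73F, a second troponin C gene, had 249.9 and 323 RPKM in Ctrl, 214 and 99.3 in Quad, 148 and 213 in Ctrl-D, and 84.7 and 91.6 in QuadD. It fell by 1.00 ± 0.17 in QuadD (adjusted p = 0.00428) and did not pass in Quad (-0.96 ± 0.34, adjusted p = 0.0580), although it passed without Quad replicate 1 (-1.51) and stood at -0.41 without Quad replicate 2. The troponin C genes of adult muscle were low throughout. TpnC41C had 1.425 and 1.18 RPKM in Ctrl, 0.391 and 0.373 in Quad, 0.784 and 1.03 in Ctrl-D, and 0.325 and 0.191 in QuadD. It fell by 0.73 ± 0.20 in Quad (adjusted p = 0.0249), where both libraries were under the 1 RPKM filter that both Ctrl libraries passed, and was not tested in QuadD. The fall of TpnC41C was not called without Quad replicate 1 (-0.74) or without Quad replicate 2 (-0.72). Without either Ctrl library the gene did not reach the filter and was not tested. TpnC4 had 1.34 and 1.09 RPKM in Ctrl, 0.887 and 0.657 in Quad, 1.97 and 1.24 in Ctrl-D, and 0.409 and 0.385 in QuadD. It fell by 0.89 ± 0.22 in QuadD (adjusted p = 0.0173), where only the Ctrl-D libraries reached the filter. This fall was not called without QuadD replicate 1 (-0.90) or without QuadD replicate 2 (-0.87). Without either Ctrl-D library TpnC4 did not reach the filter and was not tested. TpnC4 did not pass in Quad (-0.32 ± 0.21). TpnC25D stayed between the floor of the table, 0.003 RPKM in QuadD replicate 1, and 1.64 RPKM in Ctrl replicate 2, and was not tested.

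The remaining genes of the complex encode its inhibitory and structural subunits. wupA encodes troponin I, which holds actin in the inhibited state, and stood at 124 and 168 RPKM in Ctrl-D against 66.4 and 63.5 in QuadD, a fall of 1.14 ± 0.15 (adjusted p = 0.00165). up encodes troponin T, which binds the complex to tropomyosin, and stood at 148 and 201 RPKM in Ctrl-D against 96.0 and 73.7 in QuadD, a fall of 1.03 ± 0.18 (adjusted p = 0.00494). In experiment 1 their groups overlapped: wupA had 244 and 358 RPKM in Ctrl and 317 and 142 in Quad (-0.48 ± 0.37), and up had 267 and 394 RPKM in Ctrl and 348 and 132 in Quad (-0.59 ± 0.43). Both passed without Quad replicate 1, at -1.05 and -1.29, and both stood at 0.10 without Quad replicate 2.

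The tropomyosin genes differed from each other in size of change. Tm2 had 178 and 277 RPKM in Ctrl, 199.8 and 93.6 in Quad, 104 and 131 in Ctrl-D, and 52.9 and 47.9 in QuadD, and fell by 1.19 ± 0.13 in QuadD (adjusted p = 0.0009). Tm1 gives rise to muscle and to cytoplasmic tropomyosins, and had 433 and 511 RPKM in Ctrl, 482 and 382 in Quad, 382 and 397 in Ctrl-D, and 326 and 324 in QuadD. Its fall in QuadD was 0.26 ± 0.08 (adjusted p = 0.0308), which did not pass without QuadD replicate 1 or without QuadD replicate 2. Neither gene passed in Quad (-0.69 ± 0.37 for Tm2 and -0.13 ± 0.14 for Tm1), where the groups overlapped. Tm2 passed without Quad replicate 1 (-1.24) and stood at -0.15 without Quad replicate 2.

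Of the 11 Z disc and titin-like genes, 8 were tested in QuadD and 9 in Quad. In QuadD 4 fell (sls, bt, Mlp60A and Mlp84B), against 27.7% of all tested genes. In Quad 2 fell (Strn-Mlck and Zasp52), against 22.6% of all tested genes. sls encodes the titin-like protein Sallimus, which spans from the Z disc to the thick filament, and had 13.1 and 10.5 RPKM in Ctrl, 9.07 and 3.88 in Quad, 6.40 and 7.02 in Ctrl-D, and 2.86 and 2.93 in QuadD. It fell by 0.98 ± 0.16 in QuadD (adjusted p = 0.00389), and in Quad it did not pass (-0.86 ± 0.35, adjusted p = 0.0859), with both Quad libraries below both Ctrl libraries. The value of sls passed without Quad replicate 1 (-1.38) and was -0.34 without Quad replicate 2. bt encodes projectin, another titin-like protein, and had 13.4 and 12.9 RPKM in Ctrl, 18.35 and 5.12 in Quad, 4.48 and 5.51 in Ctrl-D, and 2.37 and 2.11 in QuadD. It fell by 0.88 ± 0.18 in QuadD (adjusted p = 0.0089). In Quad replicate 1 lay above and replicate 2 below both Ctrl libraries, and the sign turned with the library left out: bt was 0.45 without Quad replicate 2 (adjusted p = 0.0436) and -1.21 without Quad replicate 1 (adjusted p = 0.00175).

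Muscle LIM proteins sit at the Z disc and act in muscle differentiation. Mlp60A had 119 and 198 RPKM in Ctrl, 187 and 92.02 in Quad, 63.8 and 90.9 in Ctrl-D, and 29.6 and 28.1 in QuadD, and fell by 1.37 ± 0.17 in QuadD (adjusted p = 0.00139). Mlp84B had 31.3 and 52.5 RPKM in Ctrl, 36.7 and 16.7 in Quad, 19.2 and 23.1 in Ctrl-D, and 9.38 and 8.67 in QuadD, and fell by 1.14 ± 0.15 in QuadD (adjusted p = 0.00156). In Quad both genes overlapped with Ctrl and did not pass (-0.22 ± 0.36 and -0.69 ± 0.39). Mlp84B passed without Quad replicate 1 (-1.23) and stood at -0.14 without Quad replicate 2.

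Another 4 tested genes of this role did not pass in QuadD. Zasp52, a PDZ and LIM domain protein that binds alpha-actinin, had 30.1 and 29.9 RPKM in Ctrl, 20.2 and 20.4 in Quad, 25.7 and 23.9 in Ctrl-D, and 20.4 and 18.6 in QuadD. Its fall in Quad was 0.54 ± 0.12 (adjusted p = 0.0131), and in QuadD the value was -0.33 ± 0.12 (adjusted p = 0.0516). It was 1 of only 2 members that were not lower in Quad replicate 2 than in replicate 1, the other being Zasp67. Strn-Mlck encodes stretchin, a relative of titin and of myosin light chain kinase, and had 17.6 and 15.7 RPKM in Ctrl, 10.96 and 6.43 in Quad, 9.095 and 9.34 in Ctrl-D, and 6.52 and 7.06 in QuadD. It fell by 0.90 ± 0.25 in Quad (adjusted p = 0.0282) and did not pass in QuadD (-0.39 ± 0.15, adjusted p = 0.0611). In both experiments its groups did not overlap.

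Actn encodes alpha-actinin, the cross-linker of thin filaments at the Z disc, and had 109.7 and 132 RPKM in Ctrl, 103 and 86.1 in Quad, 89.5 and 95.7 in Ctrl-D, and 82.5 and 82.1 in QuadD. It did not pass in either comparison (-0.35 ± 0.13, adjusted p = 0.0716, and -0.17 ± 0.08, adjusted p = 0.129), and 20.7% of its exon bases overlap with other genes in the reference annotation. Msp300, a nesprin-like protein that links nuclei and Z discs, had 13.6 and 11.2 RPKM in Ctrl, 9.43 and 4.13 in Quad, 6.63 and 8.47 in Ctrl-D, and 5.325 and 4.99 in QuadD. It did not pass either (-0.87 ± 0.34, adjusted p = 0.0805, and -0.47 ± 0.18, adjusted p = 0.0640). Without Quad replicate 1 both passed in Quad, Actn at -0.48 and Msp300 at -1.38, and without Quad replicate 2 they stood at -0.23 and -0.35. The groups of both genes were apart in both experiments, with the transgene libraries lower. Zasp66 had 2.21 and 2.63 RPKM in Ctrl and 4.94 and 1.42 in Quad, overlapped, and was not tested in experiment 2. Its value in Quad was -0.49 without Quad replicate 1 and 0.80 without Quad replicate 2. Unc-89, the fly obscurin, stayed between 0.068 and 1.07 RPKM and was not tested in either experiment.

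Argk encodes arginine kinase, which buffers ATP in insect muscle and is also used by other tissues. It had 547 and 575 RPKM in Ctrl, 465 and 312 in Quad, 424 and 586 in Ctrl-D, and 334 and 365 in QuadD. No library with transgenes reached a driver-only library of its experiment, and Argk fell by 0.56 ± 0.18 in Quad (adjusted p = 0.0470) and by 0.51 ± 0.16 in QuadD (adjusted p = 0.0346). In Quad the value was -0.84 without Quad replicate 1, which passed, and -0.27 without Quad replicate 2 (adjusted p = 0.0711), and Argk also did not pass without Ctrl replicate 1 (adjusted p = 0.0662) or Ctrl replicate 2 (adjusted p = 0.101). In QuadD it was -0.74 without Ctrl-D replicate 1 and -0.28 without Ctrl-D replicate 2, both of which passed. The call was lost without QuadD replicate 1 (-0.45, adjusted p = 0.146) and without QuadD replicate 2 (-0.58, adjusted p = 0.0810).

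Calls in Quad were lost when a Ctrl library was left out, and fewer of all tested genes passed in these fits as well. Without Ctrl replicate 1 and without Ctrl replicate 2, tmod stood at -0.49 and -0.51, Zasp52 at -0.54 and -0.55, and Argk at -0.59 and -0.52. The values of TpnC47D lay further apart, at -1.01 and -0.62. Calls lost below include genes no longer tested, such as TpnC41C without a Ctrl library and TpnC4 without a Ctrl-D library. Without Ctrl replicate 2 all 6 falls lost their call, and without Ctrl replicate 1 only TpnC47D among them and the rise of Act79B were still called. In QuadD 14 of the 19 calls were made whichever of the 4 libraries was left out, and the other 5 (tmod, Tm1, TpnC4, bt and Argk) were lost in at least 1 such fit.

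The replicates of Quad differed in the members more than those of the other groups. On the log2 scale, the median of replicate 2 minus replicate 1 was -0.91 in Quad, 0.27 in Ctrl, 0.19 in Ctrl-D and -0.07 in QuadD. By role it was -1.12 for the thick filament, -0.48 for the thin filament, -0.81 for troponin and tropomyosin and -1.02 for the Z disc and titin-like genes. Without Quad replicate 1 the members' median in Quad minus Ctrl was -0.87, with 29 of 32 members below 0. Without Quad replicate 2 it was -0.14, with 19 of 32 below 0. Over all genes tested the medians of these fits were 0.025 and 0.055. Other lists moved between the same libraries: replicate 2 was lower in 7 of 7 neuron markers (median -0.87) and 7 of 8 epidermis markers (-0.32) and higher in 10 of 10 early patterning genes (0.50). Mesoderm regulators (0.07) and the genes of cytoplasmic actin and myosin (0.05) had medians near 0. The part of these differences in the results for Quad was not tested.

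**Figure D3:**
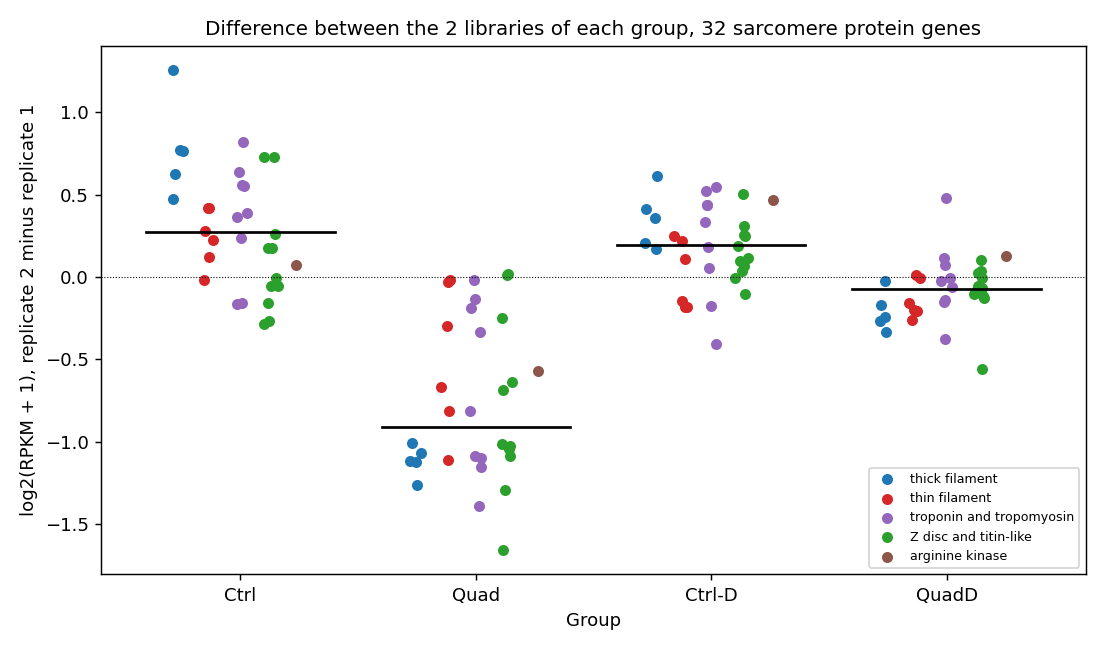
Difference between the libraries of each group, as log2(RPKM + 1) of replicate 2 minus replicate 1, for the 32 members. Each point is a gene coloured by role and each black line is the median of a group. In Quad 30 of 32 points lie below 0, all but Zasp52 and Zasp67, with a median of -0.91, and the medians of the other groups are 0.27, 0.19 and -0.07.

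The difference between both effects, QuadD minus Ctrl-D less Quad minus Ctrl, was tested in a fit of all 8 libraries. Of 29 tested members 0 passed, against 1.76% of all 10775 tested genes that were lower and 0.937% that were higher, and 4 members, Act79B, Act87E, TpnC47D and Mlp60A, had an unadjusted p under 0.05 (16.3% of all tested genes). The lowest value among the 29 tested members was that of Act79B (-1.62 ± 0.36, adjusted p = 0.0571), which rose in Quad and was not tested in QuadD. Next in size were Mlp60A (-1.15 ± 0.47, adjusted p = 0.276) and TpnC47D (-1.11 ± 0.37, adjusted p = 0.182), with Mp20 at -0.84 ± 0.45 (adjusted p = 0.402). Act87E had a difference of 0.37 ± 0.12 (adjusted p = 0.166). Without Quad replicate 2, 4 members passed in this test, Act79B (-1.96), TpnC47D (-1.52), Mp20 (-1.40) and bt (-1.33). With all 8 libraries no difference between both responses was thus shown for any member, which does not show that they were alike.

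The driver-only groups also differed in the members, although both are labelled da-Gal4/OregonR. Both Ctrl-D libraries were below both Ctrl libraries in 26 of 32 members and above them in 0, against 29.3% and 31.2% of all tested genes. The members' median was -0.67 on the log2 scale, against 0.0096 over all genes tested. At an adjusted p under 0.05, 0 members rose (0.483% of all tested genes) and 1 fell (0.752% of all tested genes), Mf, with a value of -2.28 ± 0.44 just under the threshold (adjusted p = 0.049963). Large differences that did not pass were those of Prm (-1.28 ± 0.35, adjusted p = 0.0869), bt (-1.25 ± 0.43, adjusted p = 0.126), Mlc2 (-1.23 ± 0.35, adjusted p = 0.0921) and Mhc (-1.06 ± 0.34, adjusted p = 0.112). Leaving either Quad library out of the fit did not change these values. Their SE became smaller (Mhc -1.06 ± 0.17). More of all tested genes passed in these fits, and a larger share of the members than of all tested genes. Both comparisons share the Ctrl-D libraries: Mhc stood at -1.06 between the driver-only groups and at -1.26 in QuadD minus Ctrl-D, and Prm at -1.28 and -0.30. Other lists also differed between Ctrl-D and Ctrl. The median was -0.58 for epidermis markers (6 of 8 lower with no overlap), -0.42 for neuron markers (5 of 7 lower and 1 higher) and 0.45 for early patterning genes (1 of 10 lower and 8 higher). It was -0.49 for the other muscle contraction genes, 0.13 for mesoderm regulators and 0.087 for cytoplasmic actin and myosin. Their part in the result was not tested.

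**Figure D4:**
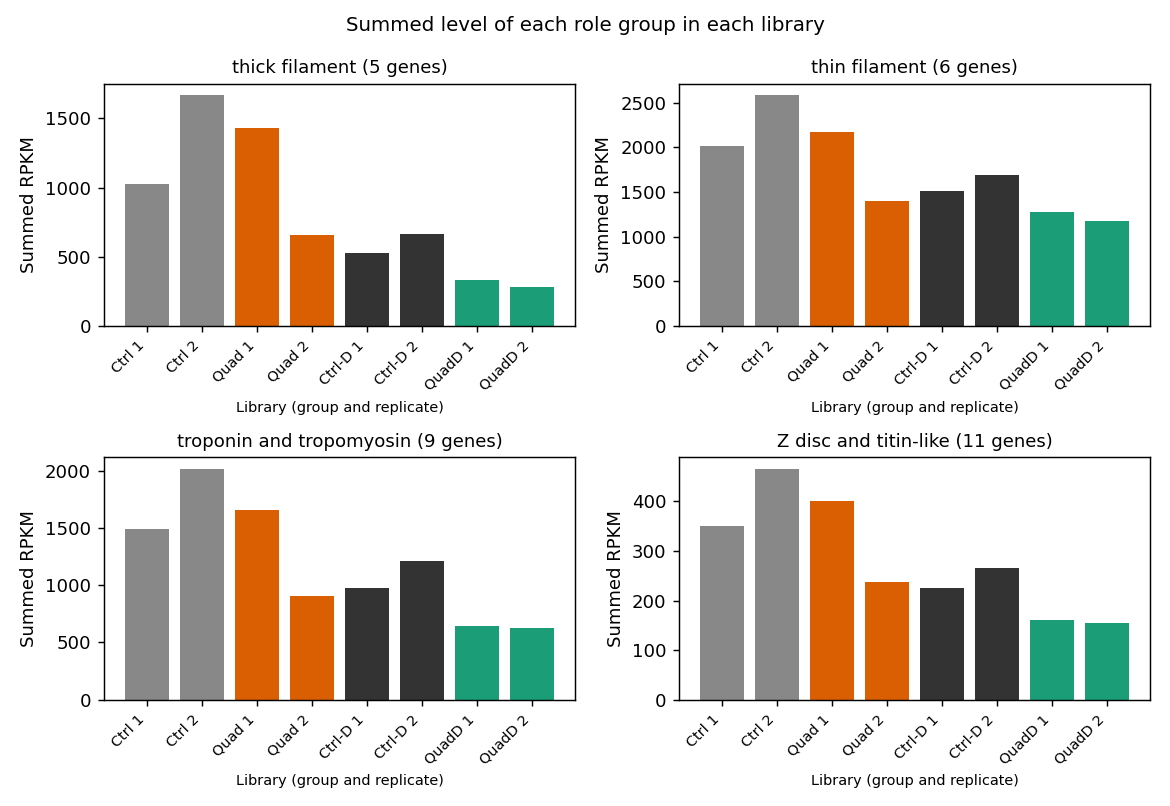
Summed RPKM of the members of each role in each library, with 1 bar per library. In all 4 panels both QuadD bars are below both Ctrl-D bars, the Ctrl-D bars are below those of Ctrl, and Quad replicate 2 is below Quad replicate 1.

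Ratios between members within a library described the composition of the set. The ratio of Act87E to Act57B was 0.139 and 0.113 in Ctrl, 0.197 and 0.340 in Quad, 0.214 and 0.166 in Ctrl-D, and 0.560 and 0.644 in QuadD. It was higher in each transgene library than in the driver-only libraries of the same experiment, and Act87E moved from rank 5 among the members in both Ctrl-D libraries to rank 2 in both QuadD libraries. TpnC73F to TpnC47D was between 2.15 and 2.21 in all 4 driver-only libraries, 2.17 and 1.78 in Quad, and 4.23 and 4.34 in QuadD. Tm2 to Tm1 was 0.411 and 0.542 in Ctrl, 0.415 and 0.245 in Quad, 0.271 and 0.329 in Ctrl-D, and 0.162 and 0.148 in QuadD. Prm to Mhc was 0.289 and 0.358 in Ctrl, 0.398 and 0.434 in Quad, 0.269 and 0.276 in Ctrl-D, and 0.524 and 0.545 in QuadD. Mlc2 to Mhc was 3.37 and 4.12 in Ctrl, 4.74 and 5.27 in Quad, 3.12 and 3.56 in Ctrl-D, and 4.72 and 5.05 in QuadD. Groups overlapped in both experiments for Mlc1 to Mhc (1.56 and 1.73, 1.66 and 1.90, 1.64 and 1.94, and 1.49 and 1.67, in the same order). The same held for wupA to up (0.916 and 0.910, 0.913 and 1.08, 0.837 and 0.837, and 0.692 and 0.862). The ratios that moved show unequal change and not which of the genes moved.

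Other genes of muscle contraction and myofibril assembly, 20 genes that are not members, were set beside them. In Quad 22.6% of all tested genes fell and 24.9% rose, and in QuadD 27.7% fell and 27.4% rose. Of the 17 tested genes of this list, 6 fell and 1 rose in Quad and 11 fell and 2 rose in QuadD. The count in Quad was 11 lower and 1 higher without Quad replicate 1, and 5 lower and 2 higher without Quad replicate 2. Chd64, a calponin-like protein, fell by 1.79 ± 0.20 in Quad and by 1.46 ± 0.10 in QuadD, and cher, the fly filamin, fell by 1.58 ± 0.29 and by 1.44 ± 0.11. Fhos, a formin, fell by 1.11 ± 0.25 and by 1.82 ± 0.19, and unc-45, the myosin chaperone, fell by 1.204 ± 0.138 and by 1.09 ± 0.14. DAAM, a formin also known for roles in axon growth, rose by 0.64 ± 0.15 in Quad and by 1.42 ± 0.09 in QuadD.

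Mesoderm and myogenic regulators split in direction, with 7 of 17 tested genes lower and 4 higher in Quad and 7 lower and 6 higher in QuadD. The shares over all tested genes were 22.6% lower and 24.9% higher in Quad, and 27.7% lower and 27.4% higher in QuadD. Without Quad replicate 1 the split in Quad was 7 lower and 5 higher, and without Quad replicate 2 it was 8 lower and 6 higher. Those that fell included sns, a myoblast fusion receptor (-1.38 ± 0.16 in Quad and -1.36 ± 0.13 in QuadD), how, an RNA-binding protein of muscle and tendon (-0.78 ± 0.09 and -0.71 ± 0.08), and blow, a fusion protein (-0.73 ± 0.11 and -0.86 ± 0.12). Those that rose included sna, an early mesoderm factor that is also active in neuroblasts (1.05 ± 0.09 and 1.11 ± 0.10), and, in QuadD, the muscle identity factors nau (1.24 ± 0.12) and slou (1.31 ± 0.14), neither of which passed in Quad (0.01 ± 0.17 and 0.25 ± 0.19). The summed level of this list was 1054 and 1015 RPKM in Ctrl, 924 and 999 in Quad, 1143 and 1063 in Ctrl-D, and 1110 and 1143 in QuadD, so it lacked the gap that the members' sums had in experiment 2. lbe was at the floor of the table in QuadD replicate 2 and was not tested.

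Genes of cytoplasmic actin and myosin did not move with the members. Of 5 genes, 2 rose in each comparison, Act5C (0.48 ± 0.11 in Quad and 0.44 ± 0.11 in QuadD) and sqh, the regulatory light chain of cytoplasmic myosin (0.28 ± 0.09 and 0.36 ± 0.08). With RLE scaling neither passed in Quad. Act42A (0.25 and 0.19), zip (0.10 and 0.15) and Mlc-c (0.05 and -0.07) did not pass. Over all tested genes 24.9% rose in Quad and 27.4% in QuadD.

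Markers of other tissues moved in the same comparisons. The counts below stand beside 22.6% of all tested genes that fell and 24.9% that rose in Quad. In QuadD these shares were 27.7% and 27.4%. Of 7 neuron markers, 3 rose in Quad (elav, nSyb and Csp) and 7 rose in QuadD; without Quad replicate 1 the count in Quad was 3 and without Quad replicate 2 it was 6. Their summed RPKM was 409 and 381 in Ctrl, 756 and 552 in Quad, 390.1 and 381 in Ctrl-D, and 792 and 820.5 in QuadD. All 8 epidermis and cuticle markers fell in both comparisons, with sums of 1427 and 1945 in Ctrl, 112 and 87.3 in Quad, 951 and 1229 in Ctrl-D, and 33.3 and 25.0 in QuadD. Of 10 early patterning genes, 3 fell and 3 rose in Quad and 7 fell and 1 rose in QuadD, with sums of 298 and 303 in Ctrl, 263 and 349 in Quad, 419.8 and 387 in Ctrl-D, and 262 and 276 in QuadD. None of the neuron and epidermis markers stood at the floor in any library. The part of these tissue differences in the members' results was not tested.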

How the data were processed

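Per the labels' protocols, total RNA of whole embryos was sequenced. The authors deposited a table per experiment with linear RPKM and log2 RPKM for each gene and library, per the file headers, along with raw count columns. Which aligner, counter, build, annotation and strand setting they used is not given in the sources used here. The members and gene lists were chosen with earlier results of these data known. Every member was named, and from other lists up to 5 genes with the smallest p per comparison that passed, plus all 5 genes of cytoplasmic actin and myosin.

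The deposited RPKM values were analysed as log2(RPKM + 1) with limma 3.58.1 (trended moderated test, R 4.3.3), for genes that reached 1 RPKM in 2 or more libraries of the fit, with Benjamini-Hochberg adjustment over all genes tested at a threshold of 0.05. Quad and QuadD were compared with their own controls in fits of 4 libraries, and the difference of effects and Ctrl-D minus Ctrl came from 1 fit of 8 libraries with 4 groups. The procedure was tested on simulated data. Intervals are 95%. The labels call the replicates biological and say no more of their origin.

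The deposited count columns were proportional to RPKM within 1% for 3414 genes in both tables, and 414 rows held a dash, so the planned count test was not run and limma voom on the whole counts was added in its place. Sums of deposited counts ranged from 2765722 to 6740835, and relative depth was taken from the counts per RPKM of genes whose counts were whole. Symbols were matched to the Ensembl BDGP6 annotation for transcript numbers and overlaps only, and all 32 members matched. Sequences were not used here. Alternatives were other pseudocounts, filters, scalings, no trend, a replicate block and leaving out each library.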

Additional observations from a re-analysis of the deposited data

Results flagged for a closer look

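The effects of QuadD and Quad differed in a test of the difference itself for Lasp, a Z disc and actin-binding protein that belongs to the genes of muscle contraction and assembly, by -0.74 on the log2 scale (SE 0.14, limma adjusted p = 0.031). Lasp stood at 51.6 and 53.6 RPKM in Ctrl, 51.9 and 45.1 in Quad, 46.8 and 47.3 in Ctrl-D, and 26.02 and 25.1 in QuadD. Both QuadD libraries were below the other 6.

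The same test passed for nau, a muscle identity factor, with a difference of 1.23 (SE 0.19, limma adjusted p = 0.0114). nau stood at 11.01 and 12.6 RPKM in Ctrl, 12.7 and 11.2 in Quad, 11.02 and 10.6 in Ctrl-D, and 26.3 and 27.4 in QuadD. Both QuadD libraries were above the other 6.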

How the results depend on the processing

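Of the members, 8 were called in Quad with the settings of the report, 3 with no filter on low values, 13 with all 8 libraries in 1 fit, and 2 to 22 when a library was left out. In QuadD 19 were called, 9 with no filter and 14 to 19 without a library. For the difference of effects the count of 0 became 1 (Act79B) with quantile normalization and ranged from 0 to 4 without a library. Between the driver-only groups the count of 1 became 0 with a pseudocount of 0.1 or 5, with no filter, with TMM, RLE or quantile scaling, without trend and with the replicate block, and ranged from 0 to 14 without a library. Leaving out a library gave, in Quad, -0.88 to 0.24 for Mlc2, -0.93 to 0.19 for Prm, -0.22 to 1.04 for Mf, -0.30 to 0.033 for Tm1, -1.29 to 0.10 for up, -1.05 to 0.10 for wupA, -1.21 to 0.45 for bt, -0.49 to 0.80 for Zasp66 and -0.73 to 0.29 for Mlp60A. In QuadD Mf turned to 0.25 with quantile normalization and ranged from -0.38 to 0.24 without a library, and Act88F turned to 0.084 with quantile normalization. For the difference of effects bt ranged from -1.33 to 0.33 without a library. The cause was not tested.

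Counted over members and alternatives, 29 calls in Quad and 34 in QuadD were lost, genes no longer tested included, and 32 and 12 were gained. In Quad 2601 genes were higher and 2355 lower, against 2201 and 2610 with TMM and 2106 and 2657 with RLE. In QuadD 2794 were higher and 2824 lower, against 2424 and 3081 with RLE and 3384 and 2452 with quantile normalization, which moved the median of all genes from 0.034 to 0.14. Deviations of same-numbered libraries from their group means correlated at -0.075 (Quad and Ctrl) and -0.145 (QuadD and Ctrl-D). Whether the numbers pair the libraries is not in the labels, and with 2 libraries per group these correlations cannot decide it. With the replicate block 10 members were called in Quad, 18 in QuadD and 0 for the difference of effects, and with crossed numbers 20 in QuadD. The count test planned with edgeR was not run, because the counts were proportional to RPKM for only 3414 of 17321 genes and 414 rows held a dash. Voom on whole counts, chosen after seeing the data, held 3 members, of which 0 passed in Quad and 2 fell in QuadD (Mlc2 and Act57B). The p-values rest on the spread between 2 libraries per group, combined by the moderated test with that of other genes of similar level. They measure no spread beyond these libraries, and a library left alone in its group is assumed to vary like the others.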

Other observations

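The deposited count columns held whole counts, proportional to RPKM within 1%, for 3 members, Mlc2, Act57B and Act88F. These are exactly the members with 1 annotated transcript in the Ensembl BDGP6 annotation. Another 13 members had a count of 0 in all 8 libraries, and 8 of them reached at least 10 RPKM in a library. Mlc2 had 8353 and 13752 counts in Ctrl, 12454 and 6011 in Quad, 1986 and 2439 in Ctrl-D, and 3555 and 1276 in QuadD. Act57B, which ranked first in RPKM in every library, had between 8366 and 53854 counts, and Act88F had between 20 and 62.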
